A study of Mus musculus with 20 samples.

Results

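The abdominal aorta of Rab22a knockout mice given angiotensin II (AngII) was compared with that of Rab22a knockout mice given saline, library by library. The members were the 5 libraries labelled as knockout with AngII and the 5 labelled as knockout with saline, 10 of the 20 libraries of the series. The mice were of the C57BL/6 strain, all 10 carried the Rab22a knockout, and treatment lasted 14 days in both groups, with AngII at 500 ng/kg/min. The other 10 libraries, from wild type C57BL/6 mice given the same treatments, entered the same fit, so that the knockout standard errors and p-values draw on the spread in all 4 groups, and served for the test of whether the response differed between genotypes. With the knockout libraries fitted alone, 363 genes had an unadjusted p under 0.05, against 595 in the joint fit. The labels used here do not state age, sex, how the Rab22a allele was made, which cells it affects or how AngII was delivered. RNA sequencing of ribosome-depleted total RNA was deposited as FPKM, a value per transcript scaled to its length and to the library total, and values are sums over the transcripts of a gene unless a transcript is named.

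AngII narrows arteries and drives blood pressure up, mainly through the type 1 angiotensin receptor, which mice encode in Agtr1a and Agtr1b. After activation the receptor is internalised into endosomes and can be returned to the cell surface, and Rab22a is a small GTPase of endosomal traffic. In the arterial wall, prolonged AngII is known for thickening of the vessel and for deposition of collagen, elastin and other matrix proteins by smooth muscle cells and adventitial fibroblasts. The title of the series places the study's question in this recycling step.

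The 10 knockout libraries corresponded to between 74300000 and 76900000 reads each, and between 12504 and 14342 genes per library reached 1 FPKM. In bulk tissue, fewer cells of a type and less RNA per cell cannot be told apart. Smooth muscle markers were strong in all 10 libraries, at a summed 1196 to 3072 FPKM under saline and 2231 to 4028 FPKM under AngII, but so were markers of white adipocytes, at 8541 to 13750 FPKM. Several libraries stood apart. Saline replicates 1 and 3 were high in lymphocyte, interferon and cell cycle genes, and saline replicate 1 was also low in matrix and contractile genes. AngII replicates 2 and 4 were low in nerve markers, at a mean log2 level of 1.43 and 2.73 against 4.06 to 5.48 in the other 8 libraries, AngII replicates 1 and 2 carried markers of mesothelium (the lining of the body cavity), and skeletal muscle markers ran from 30.4 to 7041 FPKM.

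The targeted gene was read first. The coding Rab22a transcript ENSMUST00000029024 lay between 0 and 0.00563 FPKM in the 10 knockout libraries, against a mean of 5.90 FPKM in the 5 wild type mice given saline, with an SD of 2.34. The total for Rab22a did not show the loss, because the transcript ENSMUST00000142820, annotated as a target of nonsense-mediated decay, was higher in the knockout. Wild type means of this transcript were 2.18 FPKM with saline and 1.82 FPKM with AngII. In the knockout it held 9.38 ± 1.34 FPKM (SD, n = 5) in the saline group, and in the AngII group 9.20 ± 0.603 FPKM (SD, n = 5). The difference between these 2 knockout groups was smaller than the spread between mice (exact permutation test, two-sided, p = 0.786; the smallest p that 5 against 5 allows is 0.00794).

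Across the transcriptome, the differences between AngII and saline in knockout aorta included many matrix genes, none of which passed the test for all genes. At an adjusted p under 0.05 (limma on log2(FPKM + 1), Benjamini-Hochberg, two-sided), 0 of 15010 genes were called, which is 0.0%. At an unadjusted p under 0.05 there were 595 genes (3.96%), of which 348 (2.32%) were higher and 247 (1.65%) lower under AngII. On the whole reads recovered from the FPKM values, limma-voom also called 0 genes, and 559 genes had an unadjusted p under 0.05. The smallest adjusted p was that of Postn, at 0.375. In 64 genes (0.426%) the 5 AngII values and the 5 saline values did not overlap, 39 of them higher (0.26%) and 25 lower (0.167%). That share was between 0.68% and 1.68% when 1 library was left out, the largest being without AngII replicate 1; fewer mice overlap less readily. The log2 difference was below 0 in 9196 genes (61.3%), with a median of -0.059. Because 0 genes were called, differences below are given as levels and log2 differences, with standard errors for some of them. The log2 differences are on the log2(FPKM + 1) scale unless recovered reads or another setting is named.

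Periostin, encoded by Postn on chr3:54361109-54391037 (mm10), is a secreted protein of remodelling connective tissue and was the gene with the smallest p. Postn was at 35.9, 122.0, 78.1, 88.4 and 86.8 FPKM in the saline mice and at 122.9, 287, 267, 322 and 214 FPKM in the AngII mice. The lowest AngII mouse stood just above the highest saline mouse, and the means differed 2.95-fold. The log2 difference was 1.58 ± 0.28 (SE; adjusted p = 0.375, limma), and it stayed between 1.22 and 1.80 under every alternative tried. Without AngII replicate 1, the lowest of its group, Postn was called, with an adjusted p of 0.0349, and so were Ccn2, Lox and Eln. With library weights, Postn was called at an adjusted p of 0.0432.

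Cilp, Wnt16 and Tmed1 were also higher without overlap. Cilp, a matrix protein of cartilage and injured heart, was at 9.22, 3.98, 6.60, 6.97 and 4.46 FPKM under saline and 11.5, 17.2, 13.2, 14.7 and 10.2 FPKM under AngII, a log2 difference of 1.01 ± 0.23 (SE). Wnt16, a secreted Wnt ligand, was at 1.77, 5.91, 5.37, 5.18 and 4.28 FPKM against 6.41, 18.2, 11.1, 14.3 and 6.89 FPKM. Tmed1, a cargo receptor of the early secretory pathway, held a narrow range under AngII, from 12.2 to 13.4 FPKM, against 5.99 to 10.3 FPKM under saline. Wnt16 was lowest in saline replicate 1 and AngII replicate 1, as Postn was, while Cilp was highest of its saline group in saline replicate 1.

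Plat, the tissue plasminogen activator, was at 7.77 to 17.8 FPKM under saline and 18.9 to 28.4 FPKM under AngII. Mgp, an inhibitor of vascular calcification, was at 241 to 495 FPKM and 542 to 1835 FPKM, with the highest value in AngII replicate 2 far from the next, 756 FPKM. Medag, a gene of adipocyte differentiation that also marks adventitial fibroblasts, was at 6.17 to 10.2 FPKM and 10.4 to 14.1 FPKM. Acot9, a mitochondrial acyl-CoA thioesterase, differed by only 0.36 ± 0.09 (SE) in log2 but without overlap, at 18.9 to 25.0 FPKM and 27.5 to 34.1 FPKM. The rule for named genes also took Tspan6, Nln and Mrgprf, whose log2 differences lay between 0.29 and 0.52. Adjusted p-values of these named genes lay between 0.599 and 0.991 (limma).

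**Figure D1:**
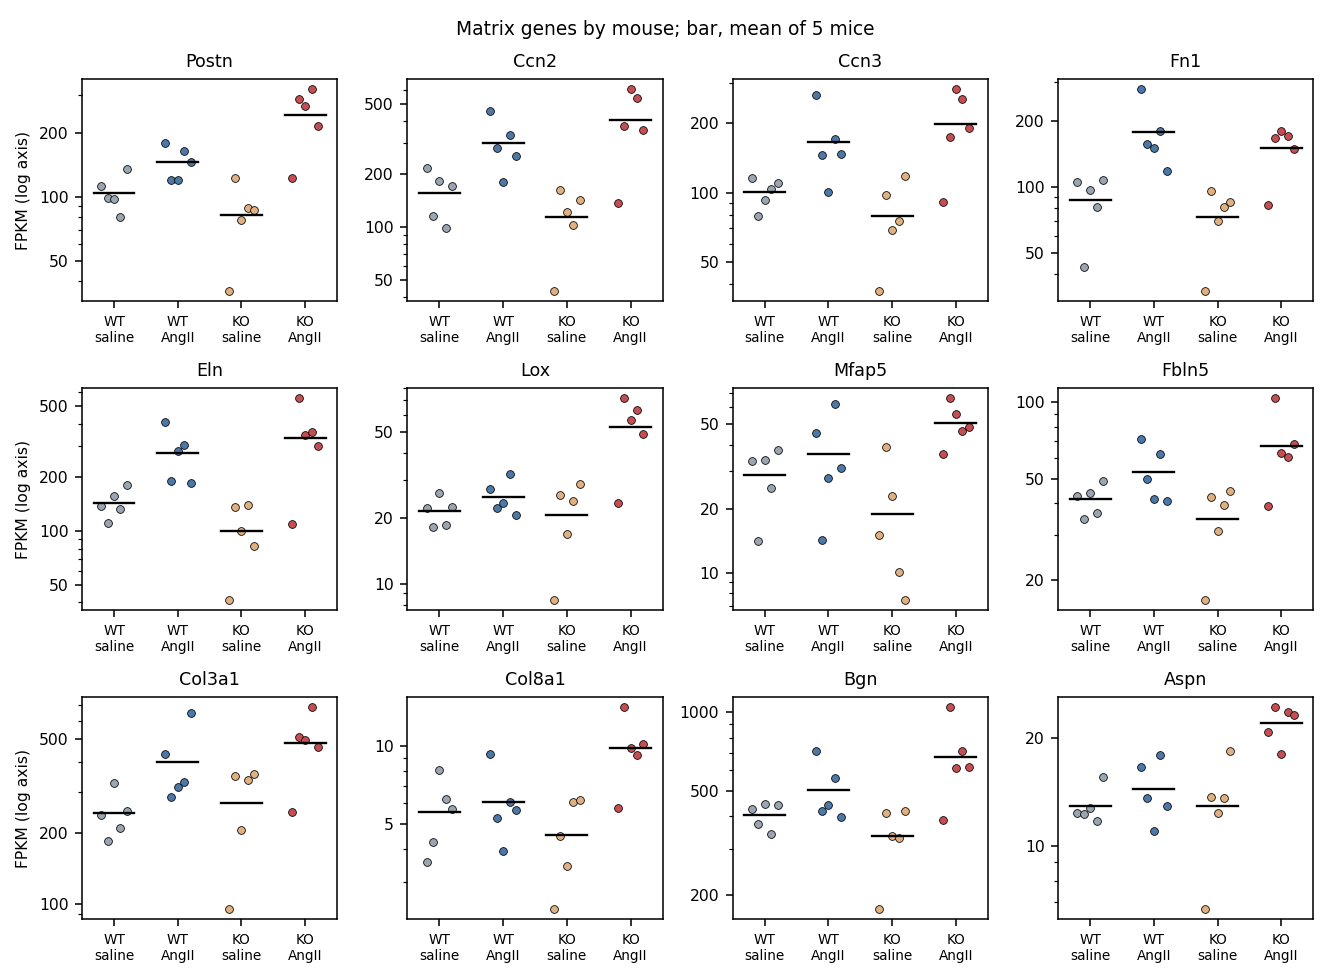
FPKM of 12 matrix genes (log axis) in each mouse of the 4 groups, with points for mice and a bar for the mean of 5. In the knockout, Postn does not overlap between saline and AngII, and in most of the other genes the lowest AngII mouse, replicate 1, falls among the saline mice.

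The matrix genes were read as 5 lists holding 97 tested genes, and 86 of them had a log2 difference above 0, against 38.7% of all genes tested. At an unadjusted p under 0.05, 44 of the 97 were higher and 1 was lower, beside 2.32% and 1.65% of all genes, and 0 passed the adjusted test. The saline library with the lowest value was replicate 1 in 74 of the 97 genes, against 24.5% of all genes. The AngII library with the lowest value was replicate 1 in 68 of them, against 26.4% of all genes. Only Postn was higher without overlap in all 10 libraries, beside 0.26% of all genes. Without AngII replicate 1, 38 of the 97 were so, against 191 of 15010 genes (1.27%). The summed smooth muscle markers were also lowest in these libraries, at 1196 FPKM in saline replicate 1 and 2231 FPKM in AngII replicate 1.

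Matricellular proteins, which sit in the matrix and act on cells, had the largest median of the 5 matrix lists, 0.81 in log2 over 18 tested genes with 16 above 0. At an unadjusted p under 0.05, 11 were higher, beside 2.32% of all genes. Ccn2, connective tissue growth factor, was at 43.1, 162, 122, 103 and 142 FPKM under saline and 136, 375, 605, 537 and 355 FPKM under AngII. The means differed 3.51-fold, and AngII replicate 1 lay within the saline range. Ccn3, another member of this family, was at 37.3 to 118 FPKM and 91.2 to 282 FPKM, with a log2 difference of 1.31 ± 0.32 (SE). Ccn5 was at 7.47, 22.7, 15.5, 18.2 and 15.0 FPKM and 14.1, 48.0, 55.1, 55.1 and 45.3 FPKM, so that 4 of 5 AngII mice had at least 45.3 FPKM and AngII replicate 1 did not. Fibronectin, Fn1, which cells bind through integrins, was at 33.5, 96.0, 70.0, 80.7 and 84.9 FPKM and 82.6, 167, 179, 170 and 149 FPKM, a log2 difference of 1.06 ± 0.31 (SE). Most of this sum was ENSMUST00000185408, annotated as a retained intron, at means of 63.6 and 130 FPKM.

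Elastic fibre genes and lysyl oxidases, which build and cross-link elastin, had a median log2 difference of 0.49, with 18 of 21 above 0. Eln, elastin itself (chr5:134702593-134747323), was at 41.1, 137, 100.4, 140 and 82.9 FPKM under saline and 109, 556, 343, 361 and 301 FPKM under AngII. The means differed 3.33-fold, with a log2 difference of 1.67 ± 0.38 (SE). Most of this sum was ENSMUST00000202570, annotated as a retained intron, at means of 71.6 and 231 FPKM. The coding ENSMUST00000015138 was at means of 25.5 and 95.2 FPKM, a log2 difference of 1.88 ± 0.48 (SE). Lox, the main lysyl oxidase, was at 8.37, 25.6, 17.0, 23.9 and 28.7 FPKM and 23.5, 71.9, 56.6, 63.2 and 49.0 FPKM. As with Ccn2, AngII replicate 1 was the only AngII mouse within the saline range for Eln and Lox.

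Mfap5, a microfibril protein, was at 15.1, 38.9, 22.8, 10.1 and 7.41 FPKM and 36.1, 66.3, 55.9, 46.5 and 48.3 FPKM. Fbln5, which tethers elastin to microfibrils, and Loxl1, a second lysyl oxidase, had log2 differences of 0.94 and 0.98. Within the same list, 2 genes went the other way by more than 1 in log2. Loxl2, chosen for mention after its values were seen, was at 4.05, 4.77, 4.51, 1.11 and 6.98 FPKM under saline and between 0.349 and 0.743 FPKM under AngII, without overlap. The latent TGF-beta binding protein gene Ltbp3 was at 0.774, 28.2, 17.6, 17.4 and 7.73 FPKM and 0.00256, 15.1, 1.26, 0.795 and 0 FPKM, wide enough within groups that its unadjusted p was 0.0644. Both genes also varied widely within the wild type groups. The Loxl2 transcript ENSMUST00000022660 ranged there from 0.288 to 8.87 FPKM under saline and from 0.115 to 11.1 FPKM under AngII. The Ltbp3 transcript ENSMUST00000081496 ranged from 0 to 17.0 FPKM under saline and from 0 to 33.7 FPKM under AngII. Ltbp2, a relative of Ltbp3, was higher under AngII in the knockout, with a log2 difference of 1.29 ± 0.53 (SE). Its transcript ENSMUST00000163189 was listed at 0 in all saline mice but replicate 5, at 2.06 FPKM, and was at 7.94 to 27.9 FPKM under AngII. In wild type this transcript ranged from 0 to 18.8 FPKM under saline and from 0 to 19.4 FPKM under AngII. Transcripts ENSMUST00000002073 and ENSMUST00000168699 had log2 differences of -0.27 and -0.36 in the knockout.

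Collagens and the enzymes that process them had a median of 0.48, with 26 of 28 above 0. At an unadjusted p under 0.05, 10 were higher and 0 lower, beside 2.32% and 1.65% of all genes. Col3a1, a fibrillar collagen of the vessel wall, was at 94.6, 349, 206, 337 and 358 FPKM under saline and 245, 510, 498, 688 and 466 FPKM under AngII. Col8a1, a short-chain collagen made by smooth muscle cells, was at 2.35 to 6.19 FPKM and 5.76 to 14.1 FPKM. Plod2, which hydroxylates collagen lysines ahead of cross-linking, had the smallest p of the list, with a log2 difference of 0.91 ± 0.22 (SE) at 3.26 to 8.44 FPKM and 7.76 to 18.4 FPKM. Col5a1 and Col18a1 had log2 differences of 0.81 and 0.95.

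Small proteoglycans of the list showed the same arrangement, with a median of 0.57 and 12 of 14 above 0. Bgn, biglycan, which binds collagen and TGF-beta, was at 177, 411, 337, 330 and 420 FPKM under saline and 387, 1048, 614, 713 and 619 FPKM under AngII. Aspn, asporin, was at 6.66, 13.7, 12.3, 13.6 and 18.4 FPKM and 20.7, 24.4, 18.0, 23.5 and 23.1 FPKM, overlapping only through AngII replicate 3. Fmod, Lum and Omd, which regulate collagen fibrils, had log2 differences of 0.76, 0.75 and 0.63. Basement membrane genes had a median of 0.35 with 14 of 16 above 0, among them Col4a1 at 0.49, Col4a2 at 0.58 and the integrin ligand Npnt at 0.86.

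Matrix proteases and their inhibitors moved in mixed directions, with 16 of 25 above 0 and a median of 0.20. Timp1, which blocks matrix metalloproteinases, was at 1.68 to 6.03 FPKM under saline and 5.04 to 38.9 FPKM under AngII, the top value being AngII replicate 2. Mmp3, stromelysin, had a log2 difference of 0.72. Mmp9, gelatinase B, was the 1 gene of the list lower at an unadjusted p under 0.05, beside 1.65% of all genes. It was at 6.49, 5.58, 22.4, 6.46 and 7.54 FPKM under saline and 3.41, 1.60, 3.53, 4.68 and 6.03 FPKM under AngII. The highest of these, saline replicate 3, was also the highest library in neutrophil markers, and the part of those cells in the difference was not tested.

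The matrix medians were smaller without saline replicates 1 and 3, at 0.73 for matricellular proteins, 0.34 for elastic fibre genes, 0.30 for collagens, 0.20 for proteoglycans and 0.17 for basement membrane genes, beside 0.034 for all genes. With the level of the smooth muscle list as a covariate they were 0.58, 0.32, 0.34, 0.35 and 0.22. Both of these alternatives were chosen after the data were seen. All 5 medians kept their sign and stood above the median of all genes in each.

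Contractile genes of smooth muscle were mostly higher as well, with 26 of 29 above 0, beside 38.7% of all genes, a median of 0.40, and 7 higher at an unadjusted p under 0.05, beside 2.32% of all genes. Acta2, smooth muscle actin, was at 522, 1467, 985, 1170 and 1398 FPKM under saline and 1101, 1852, 2071, 1996 and 1993 FPKM under AngII. Cnn1, calponin, was at 41.8, 117, 83.0, 96.8 and 128 FPKM and 91.8, 144, 204, 246 and 201 FPKM. AngII replicate 1 was the lowest AngII mouse in both genes and the only one inside the saline range. Itga8, the integrin of contractile smooth muscle, and Cald1, caldesmon, had log2 differences of 0.90 and 0.73. Myl6, the essential light chain of smooth muscle myosin, was singled out after its values were seen because it alone of the list did not overlap, beside 0.426% of all genes. It was at 410 to 617 FPKM under saline and 629 to 842 FPKM under AngII. The median of this list was 0.14 without saline replicates 1 and 3. With the smooth muscle marker list as covariate it was 0.096, but 7 of the 8 marker genes are also in the contractile list. A list of smooth muscle transcription factors of mixed roles, among them Srf, Myocd and Klf4, also held Notch3 and Jag1. It had a median of -0.011, with 11 of 23 above 0.

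Fhl1, a LIM domain protein of muscle and the cytoskeleton, was higher without overlap, and so were transcripts from 2 of its start sites. The gene (chrX:56731787-56793346) was at 43.5, 87.5, 51.8, 86.6 and 78 FPKM under saline and 120, 140, 148, 141 and 113 FPKM under AngII, a log2 difference of 0.97 ± 0.24 (SE). Transcript ENSMUST00000114772, which starts at an internal site of the gene, was at 9.40, 17.1, 12, 17.4 and 18.8 FPKM and 42.7, 44.2, 68.0, 53.7 and 39.7 FPKM. Its log2 difference was 1.68 ± 0.46 (SE; adjusted p = 0.689, limma at transcript level). Transcript ENSMUST00000023854, from the first start site, was at 26.6, 51.6, 30.1, 26.6 and 48.0 FPKM and 54.1, 68.6, 55.9, 68.1 and 56.6 FPKM. The log2 difference was larger for the internal transcript, and the difference between the transcripts was not tested. Wild type mice held the internal transcript at 6.75 to 93.8 FPKM under saline, a range that covers the knockout AngII values, and at 26.7 to 58.1 FPKM under AngII. The transcript from the first start site was there at 47.2 to 55.3 FPKM and 35.3 to 68.9 FPKM, and the whole gene at 65.0 to 176 FPKM and 85.4 to 148 FPKM.

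The RefSeq promoter windows (GRCm38.p6, 250 bases before to 50 after a gene's start) of Fhl1 and of Vcl were searched on both strands for the CArG box, the binding sequence of serum response factor, a factor of contractile genes. Both hold 1. They are shown because both genes were named by the rule and had such a box near a start, and capitals mark the box. The Fhl1 stretch lies at chrX:56779571-56779600 on the plus strand, with the box 102 to 93 bases before the internal start, and the Vcl stretch is the 250 bases before the start, chr14:20929148-20929397 on the plus strand.
Fhl1: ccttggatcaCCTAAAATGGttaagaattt
Vcl: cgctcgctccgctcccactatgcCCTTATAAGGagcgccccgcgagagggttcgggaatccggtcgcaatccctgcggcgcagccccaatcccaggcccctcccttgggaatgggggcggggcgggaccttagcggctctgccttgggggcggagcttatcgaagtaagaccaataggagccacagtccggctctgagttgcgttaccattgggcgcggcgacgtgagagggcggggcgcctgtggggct
The box occurred in 535 of 32851 windows (1.63%), which are those of 488 of 27025 genes (1.81%), and in 3 of the 24 contractile genes that had a window (12.5%), namely Myl9, Myl6 and Vcl. A match in these letters is a description and not a measured binding site. Vcl, vinculin, which links actin to adhesion sites, was at 19.5, 25.9, 26.3, 23.9 and 27.3 FPKM under saline and 24.4, 34.3, 41.0, 40.8 and 36.0 FPKM under AngII.

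**Figure D2:**
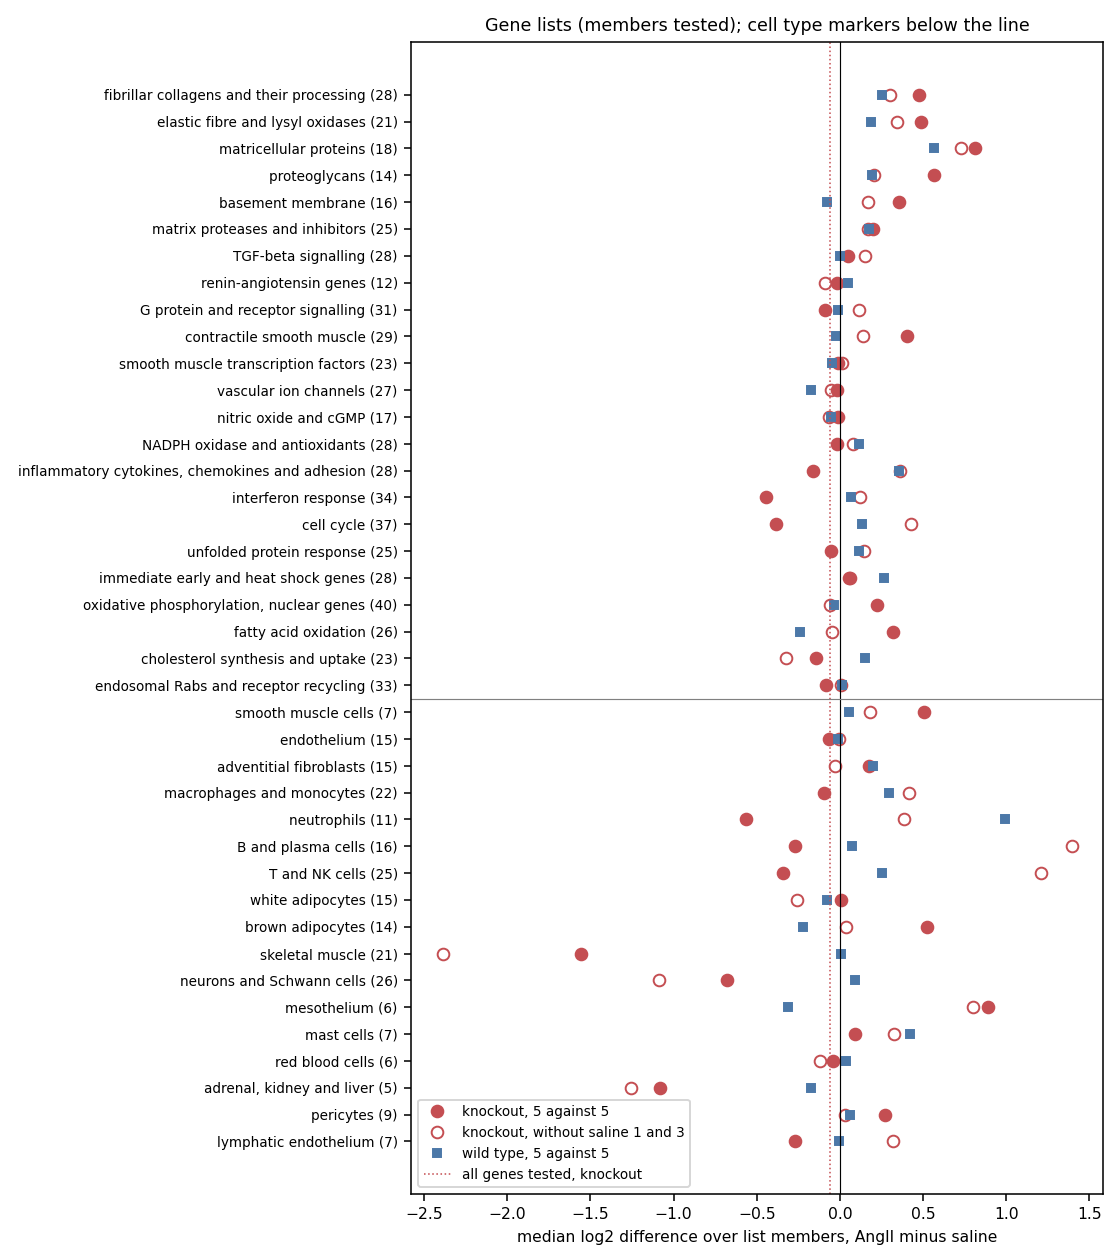
Median log2 difference between AngII and saline over the tested members of each gene list, for the knockout with all libraries (filled circles), the knockout without saline replicates 1 and 3 (open circles) and the wild type (squares). Matrix lists stay above 0 in both knockout comparisons, and the lists of lymphocytes, interferon response and cell cycle change sign.

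Genes of the renin-angiotensin system itself were not shifted together, with 5 of 12 tested genes above 0 and a median of -0.019. Agtr1a, the main receptor for AngII in the mouse vessel wall, was at 6.27, 17.7, 9.44, 29.4 and 11 FPKM in the saline mice. In the AngII mice it was at 47.5, 3.57, 22.2, 2.97 and 26.4 FPKM, so that this group held both the highest and the lowest values, and the log2 difference was 0.022 ± 0.56 (SE). Without AngII replicates 2 and 4, set aside for their nerve markers after the data were seen, it was 1.17 ± 0.38 (SE; adjusted p = 0.972, limma); these replicates also hold the lowest Agtr1a values. The AngII mice with the low values, replicates 2 and 4, were also those with little signal from nerve genes. Th, the noradrenaline-synthesis enzyme of sympathetic nerves, was at 357, 0, 59.1, 4.94 and 264 FPKM under AngII, and Prph, a neuronal filament protein, at 250, 0.352, 144, 2.98 and 199 FPKM. Under saline Th ran from 53.9 to 285 FPKM and Prph from 56.6 to 310 FPKM. All 26 nerve and Schwann cell markers were measured, their sum lay between 771 and 2782 FPKM under saline and between 151 and 2948 FPKM under AngII, and their part in the Agtr1a values was not tested.

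Agtr1b, the other type 1 receptor gene, was at 0.413 to 1.81 FPKM under saline and 0.223 to 1.26 FPKM under AngII. Agtr2, the type 2 receptor, was under 1 FPKM in every knockout library and was not tested. Ace, angiotensin converting enzyme, was at 26.9, 53.2, 51.6, 52.4 and 57.7 FPKM and 49.1, 132, 55.1, 71.8 and 69.8 FPKM, a log2 difference of 0.59 ± 0.23 (SE; adjusted p = 0.991, limma). Agt, the precursor of AngII, was at 9.28, 10.5, 21.3, 24.9 and 21.7 FPKM and 8.16, 0, 12.3, 12 and 18.2 FPKM, where AngII replicate 2 is listed at 0. Signalling genes downstream of G protein coupled receptors had 14 of 31 above 0. Of these 31 genes 0 reached an unadjusted p under 0.05, beside 3.96% of all genes, a share at which a list this short would hold few or none.

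**Figure D3:**
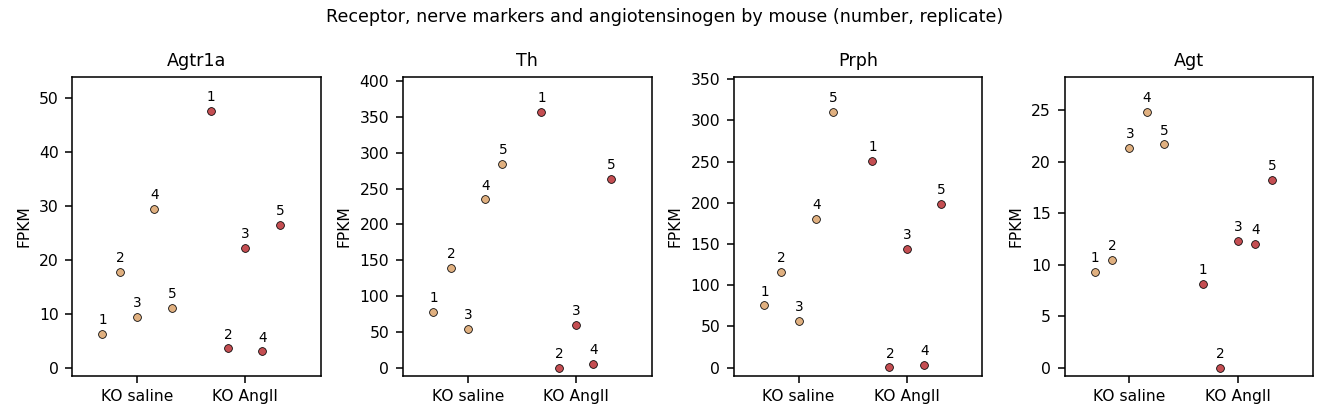
FPKM of Agtr1a, Th, Prph and Agt in each knockout mouse, with the replicate number beside each point. AngII replicates 2 and 4 are lowest of the AngII group for Agtr1a, Th and Prph.

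Rab proteins and recycling factors of endosomes, the pathway in which Rab22a works, had 13 of 33 tested genes above 0 and a median of -0.081, beside -0.059 for all genes. Rab11fip5, an effector of Rab11 in recycling endosomes, was at 9.75, 8.82, 5.03, 13.2 and 11.1 FPKM under saline and 6.42, 3.82, 4.54, 3.23 and 4.30 FPKM under AngII, a log2 difference of -0.92 ± 0.28 (SE). Its difference in wild type was -0.97. Rab11b, a Rab of recycling endosomes, was at 36.7, 25.1, 36.2, 24.2 and 26.2 FPKM and 10.8, 21.6, 22.5, 22.9 and 27.0 FPKM. On recovered reads, however, the log2 difference of Rab11b was 0.010 instead of -0.52: its short transcript ENSMUST00000173860 was at 5.16 to 28.7 FPKM under saline and 0.414 to 6.12 FPKM under AngII, while the long ENSMUST00000057373 was at 7.79 to 19.9 FPKM and 9.70 to 20.8 FPKM.

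Among the 12 lower genes named by the rule, Rrbp1 had the largest log2 difference. Rrbp1 encodes a ribosome-binding protein of the rough endoplasmic reticulum and was at 57.6, 35.8, 49.3, 30.2 and 38.7 FPKM under saline. Under AngII it was at 3.90, 14.7, 26.7, 4.14 and 4.21 FPKM, a log2 difference of -2.24 ± 0.66 (SE). The AngII values fell into a low and a higher part, with replicates 2 and 3 above the rest. Its long transcript ENSMUST00000016072 carried this, at 26.2 to 46.5 FPKM under saline and 0.605 to 19.5 FPKM under AngII. Wild type saline mice had 32.95 to 42.1 FPKM of Rrbp1 except replicate 3 at 2.22 FPKM, and wild type AngII mice had 10.1 to 45.75 FPKM.

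Bap1, a nuclear deubiquitinase, was at 19.2 to 23.7 FPKM in the knockout under saline and 12.1 to 18.8 FPKM under AngII. Map2k2, a kinase of the ERK pathway, was at 44.5, 39.4, 42.9, 44.1 and 38.5 FPKM and 29.8, 22.2, 24.9, 27.8 and 34.3 FPKM. Metap2, which removes the first methionine from new proteins, was at 22.6 to 26.8 FPKM and 17.9 to 21.6 FPKM. Trf, the iron carrier transferrin, was at 268 to 488 FPKM and 74.5 to 257 FPKM, the lowest value being AngII replicate 2. The rule also named Idnk, Ppp6r1, Ntmt1, Mars and C1qbp, with log2 differences between -0.89 and -0.21. All 12 lower genes named by the rule had adjusted p-values of at least 0.796 (limma).

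In Strbp and Vps29 the lower FPKM came with a shift between transcripts. Strbp, which encodes an RNA-binding protein, was at 16.4, 5.80, 13.1, 7.45 and 8.15 FPKM under saline and 4.69, 3.50, 4.79, 5.19 and 5.45 FPKM under AngII. On recovered reads its log2 difference was -0.035 instead of -0.89. The transcript of 16348 bases, ENSMUST00000028279, was at 0.0271, 0.319, 0.0896, 0.328 and 0.645 FPKM under saline and 1.21, 0.984, 1.66, 1.67 and 1.41 FPKM under AngII. The transcript of 3144 bases, ENSMUST00000072186, was at 14.1, 5.00, 11.9, 6.53 and 7.32 FPKM and 3.36, 1.95, 2.76, 2.93 and 3.58 FPKM. Neither transcript overlapped between the groups, and they went in opposite directions. In wild type the long transcript was at 0.419 to 2.02 FPKM under saline and 0.235 to 1.31 FPKM under AngII, and the short one at 1.64 to 5.10 FPKM and 2.60 to 12.6 FPKM. The interaction had an unadjusted p of 7.9e-05 for the long and 0.000101 for the short transcript (limma, adjusted p = 0.538 and 0.573).

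Vps29, a subunit of the retromer complex that returns cargo from endosomes, was at 25.5, 22.7, 27.4, 29.5 and 32.2 FPKM under saline and 19.9, 14.3, 14.3, 17.8 and 17.5 FPKM under AngII. Its transcript ENSMUST00000111729, annotated as a target of nonsense-mediated decay, was at 17.2 to 20.7 FPKM under saline and 1.91 to 7.29 FPKM under AngII. The coding transcript ENSMUST00000155671, of 2716 bases, was at 3.97 to 9.74 FPKM and 8.37 to 12.6 FPKM. On recovered reads the log2 difference of the gene was -0.11 instead of -0.68. Wild type mice held ENSMUST00000111729 at 1.27 to 16.6 FPKM under saline and 2.57 to 25.1 FPKM under AngII. Their means were 6.68 and 8.92 FPKM, against 18.7 and 4.69 FPKM in the knockout, so that knockout saline had the highest mean of the 4 groups.

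At the level of single transcripts, 34149 were tested, unannotated models included, and 1 was called. It was ENSMUST00000187609 of Nupr1, a stress-induced nuclear protein gene, in a form annotated as a target of nonsense-mediated decay. This transcript was at 3.85 FPKM in saline replicate 1, was listed at 0 in the other 4 saline mice, and was at 13.8, 33.8, 8.75, 16.9 and 23.2 FPKM in the AngII mice. The log2(FPKM + 1) difference was 3.76 ± 0.44 (SE; adjusted p = 0.00262, limma). In wild type mice the same transcript was at 9.28 to 21.1 FPKM under saline and 13.9 to 31.9 FPKM under AngII, so that the knockout saline mice were the ones that stood apart. The interaction had an unadjusted p of 5.2e-05 (limma, adjusted p = 0.44). The main coding transcript of Nupr1, ENSMUST00000032961, was at 19.96 to 56.0 FPKM and 44.2 to 127.3 FPKM, with overlap. Of 8760 unannotated models tested, 0 were called, and 437 had an unadjusted p under 0.05, beside 1566 of all 34149 transcripts tested.

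**Figure D4:**
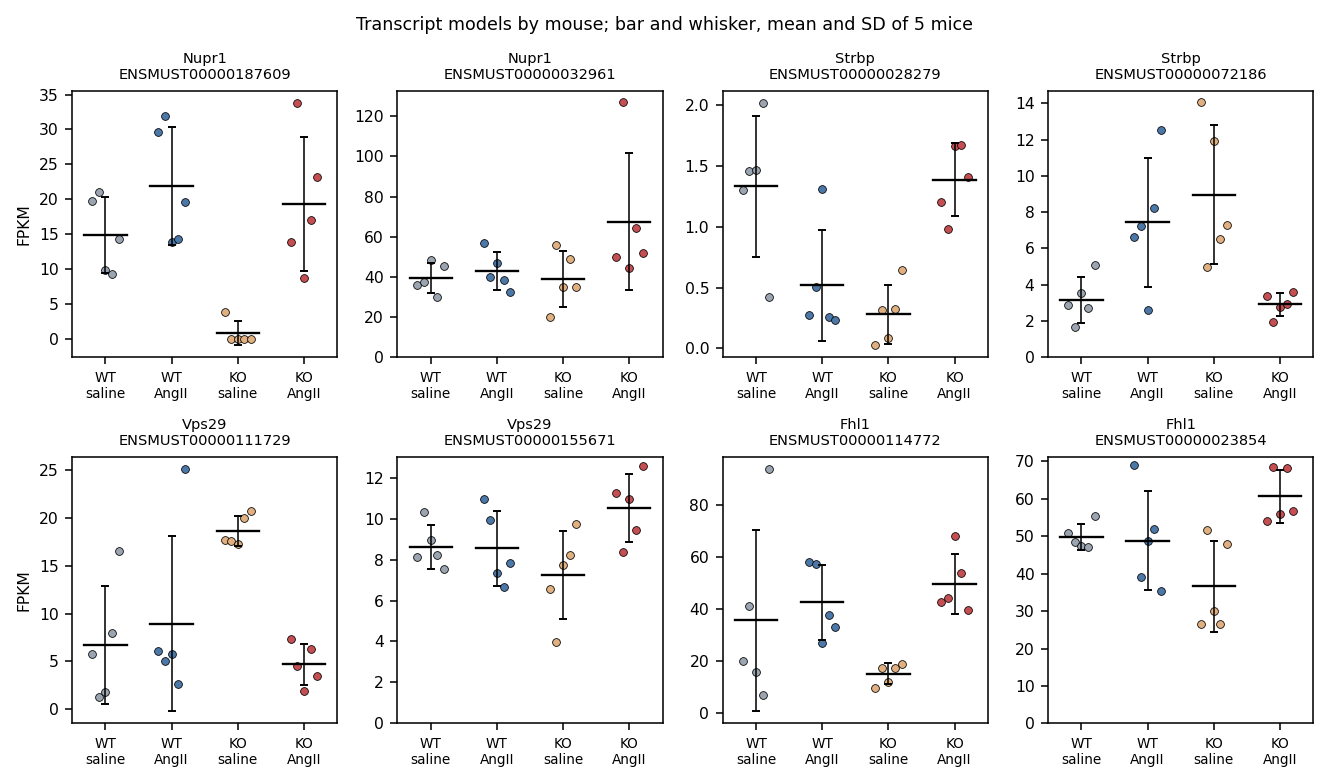
FPKM of 8 transcripts of Nupr1, Strbp, Vps29 and Fhl1 in each mouse of the 4 groups, with bars for the mean and whiskers for the SD of 5 mice. The Nupr1 transcript ENSMUST00000187609 is listed at 0 in 4 knockout saline mice, and the Strbp transcripts move in opposite directions.

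Lists of interferon, cell cycle, lymphocyte and neutrophil genes had medians below 0 in the knockout with all 10 libraries and above 0 without saline replicates 1 and 3. Interferon response genes were below 0 in 32 of 34, with a median of -0.45, and cell cycle genes in 35 of 37, with a median of -0.39. Irf7, a transcription factor of the interferon response, was at 44.5, 3.87, 15.8, 5.36 and 4.37 FPKM under saline and 3.91, 2.17, 5.67, 7.29 and 5.04 FPKM under AngII, so that saline replicates 1 and 3 alone exceeded the AngII mice. Isg15, a ubiquitin-like protein induced by interferon, had 47.6 FPKM in saline replicate 1 and at most 14.2 FPKM elsewhere. Without these 2 libraries the medians were 0.12 for interferon genes and 0.43 for cell cycle genes. Markers of T and NK cells moved from -0.34 to 1.21 and those of B and plasma cells from -0.27 to 1.40. AngII replicates 3, 4 and 5 were themselves high in T and NK markers, at mean log2 levels of 3.09, 3.96 and 2.11, against 0.65 to 1.34 in the 3 other saline mice and 0.518 and 0.664 in the other AngII mice.

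The markers themselves show how uneven the libraries were. T and NK cell markers summed to between 15.7 and 965 FPKM under saline and between 12.5 and 503 FPKM under AngII, with 25 of 25 markers in the files. Rtp4, an interferon-induced chaperone of receptors, was the 1 interferon gene without overlap, beside 0.426% of all genes. It was at 9.57, 6.19, 9.91, 3.93 and 4.85 FPKM under saline and 1.62, 2.15, 2.64, 3.62 and 2.05 FPKM under AngII. Its AngII values lay below the 3 other saline mice too. The neutrophil gene S100a8 was at 24.4, 11, 317, 15.2 and 21.6 FPKM and 13, 9.18, 27.5, 25.0 and 35.2 FPKM, and saline replicate 3 alone set the direction of its mean. Anln, a cytokinesis protein, went against its list, at 1.04 to 4.16 FPKM and 2.20 to 10.1 FPKM.

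Inflammatory cytokines, chemokines and adhesion genes had 7 of 28 above 0 and a median of -0.16, which became 0.36 without saline replicates 1 and 3. Genes of TGF-beta signalling were close to 0, with a median of 0.048 and 17 of 28 above 0. Tgfb2, a TGF-beta ligand, was the 1 gene of that list at an unadjusted p under 0.05, beside 3.96% of all genes. It was at 0.938 to 3.73 FPKM under saline and 3.28 to 5.03 FPKM under AngII. Genes of nitric oxide signalling, NADPH oxidases and antioxidants, and the unfolded protein response had medians of -0.013, -0.017 and -0.055. Of their 17, 28 and 25 tested genes 0 passed an unadjusted 0.05, beside 3.96% of all genes. At that share, lists this short would hold few such genes or none.

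**Figure D5:**
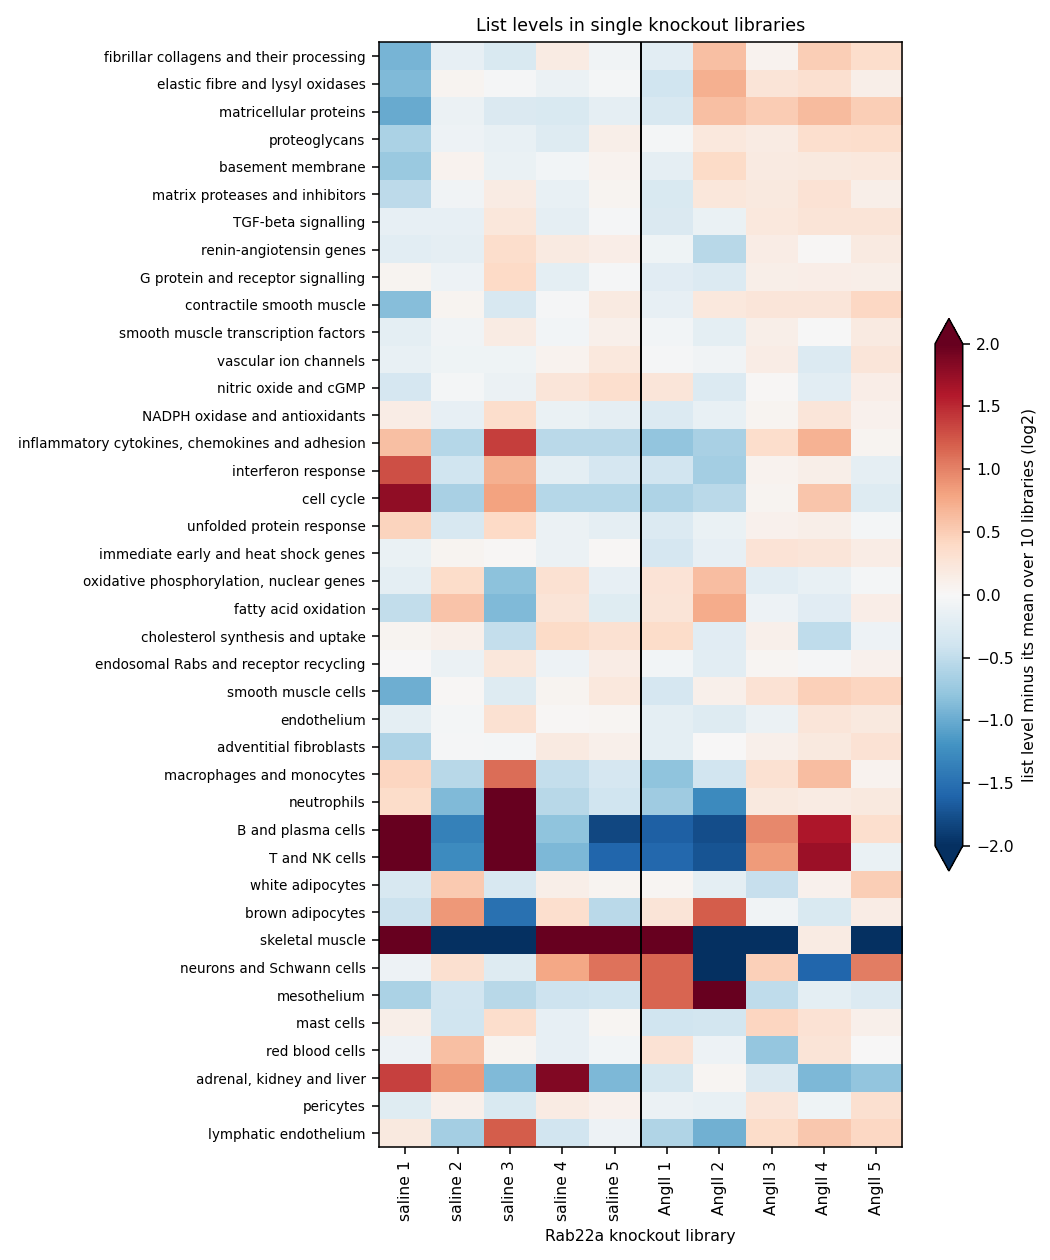
Level of each gene list in each of the 10 knockout libraries, as the mean log2(FPKM + 1) of its tested members minus the mean over the libraries (colour, log2 scale, capped at 2). Saline replicate 1 is low in matrix and contractile lists, saline replicates 1 and 3 are high in lymphocyte lists, and AngII replicates 2 and 4 are low in nerve markers.

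Genes of oxidative metabolism were mostly higher under AngII in the knockout. Nuclear genes of oxidative phosphorylation were above 0 in 36 of 40, with a median of 0.22, and genes of fatty acid oxidation in 23 of 26, with a median of 0.32. Acads, which oxidises short-chain fatty acids, had the smallest p of that list, at 3.10, 5.45, 3.97, 3.53 and 5.08 FPKM under saline and 17.6, 21.6, 5.41, 11.1 and 11.2 FPKM under AngII. Hadhb, a subunit of the trifunctional enzyme, was at 108 to 451 FPKM and 274 to 560 FPKM, the lowest of all being saline replicate 3. Brown adipocyte markers moved with these lists, with 13 of 14 above 0, a median of 0.52 and sums of 324 to 2242 FPKM under saline and 1035 to 3329 FPKM under AngII. Without saline replicates 1 and 3 the medians were -0.058 for oxidative phosphorylation, -0.046 for fatty acid oxidation and 0.036 for brown adipocytes. The part of those adipocytes in the metabolic lists was not tested.

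Mesothelial markers had a median of 0.89, with 6 of 6 tested genes above 0, and were high in AngII replicates 1 and 2. The median was 0.74 without AngII replicate 1 and 0.45 without AngII replicate 2. Upk3b, a mesothelial surface protein, was at 0.0518 to 0.14 FPKM under saline and at 5.52, 11.2, 0.0758, 0.803 and 0.355 FPKM under AngII. Skeletal muscle markers had a median of -1.55 with 20 of 21 below 0, and were high in saline replicates 1, 4 and 5 and in AngII replicate 1.

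Whether the response in the knockout differed from that in wild type was tested as the interaction of genotype and treatment. At an adjusted p under 0.05, 0 of 15010 genes were called (0.0%), and 501 (3.34%) passed an unadjusted 0.05 (limma). In wild type alone, AngII against saline also called 0 genes (0.0%). There, 458 genes (3.05%) passed an unadjusted 0.05 and 92 (0.613%) did not overlap, 50 higher (0.333%) and 42 lower (0.28%). Of the 97 matrix genes, 75 had a larger log2 difference in the knockout, against 41.0% of all genes. In 11 of the 97 (11.3%) this came with an unadjusted interaction p under 0.05, against 1.53% of all genes. Saline replicate 1, the lowest saline library in most of these genes, bears on this count. Without saline replicates 1 and 3, 55 of the 97 (56.7%) had the larger difference in the knockout, against 53.8% of all genes. An unadjusted interaction p under 0.05 was then reached by 8 of the 97 (8.25%), against 3.28% of all genes. Of these 8, 5 had the larger difference in the knockout, against 285 of the 492 such genes among all tested. As shares of each whole set these are 5.15% of the 97 and 1.90% of all genes. Collagens and proteoglycans then had knockout medians of 0.30 and 0.20. Without those libraries the interaction again called 0 genes, with 492 at an unadjusted p under 0.05. The medians in wild type were 0.57 for matricellular proteins, 0.25 for collagens, 0.19 for elastic fibre genes, 0.20 for proteoglycans and -0.077 for basement membrane genes.

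Lox is an example in which the wild type mice hardly differed, at 22.4, 18.2, 26.1, 18.6 and 22.6 FPKM under saline and 27.2, 22.3, 23.6, 32.1 and 20.7 FPKM under AngII, with an unadjusted interaction p of 0.0142. Postn, at 112, 99.0, 97.4, 79.99 and 135 FPKM in wild type with saline and 178, 120, 120, 164 and 146 FPKM with AngII, had an unadjusted interaction p of 0.0128. The adjusted interaction p of Lox and of Postn was 0.995 (limma). Both were named for a small p in the knockout, a choice that favours a larger difference there. Fn1 had a log2 difference of 1.06 in the knockout and 1.03 in wild type, with an unadjusted interaction p of 0.944. The neutrophil list went opposite ways, with 11 of 11 genes below 0 in the knockout, at a median of -0.57, and 11 of 11 above 0 in wild type, at a median of 0.99. Its knockout median was 0.39 without saline replicates 1 and 3.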

How the data were processed

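Abdominal aortas of 20 mice were profiled, and 1 table per library was used. The authors deposited FPKM values for 126719 transcript models, read as FPKM from the values since the labels name no unit. The build was mm10 and limma was used, per the submitters' processing notes; the aligner, the counter and whether single reads or fragments were counted are not stated in the sources used here. FPKM depends on transcript length and on all other RNA in a library. Of 110082 Ensembl models 109913 matched GENCODE M21 (mm10), and their FPKM was summed over 42890 genes; 16637 unannotated models were left out of gene values. Multiplied by transcript length, 99.4% to 99.5% of values lay within 0.1 read of a whole number, at about 68800000 to 77300000 reads per library, and tested genes had a median of 1302 reads.

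Genes reaching 1 FPKM in 5 or more libraries (15010) entered 1 fit of log2(FPKM + 1) over all 20 libraries, with 1 mean per group, in limma 3.58.1 under R 4.3.3 (lmFit, then eBayes, trend and robust both on). Calls used a Benjamini-Hochberg adjusted p under 0.05. Single measures used exact permutation tests over all arrangements of 5 against 5. Replicates are 5 mice per group; the labels give no batch. Named genes were the 12 higher and 12 lower protein-coding genes with the smallest p among those without overlap and a mean of at least 5 FPKM, up to 5 members with the smallest p per pathway list (23 lists) and 3 per cell type list (17 lists), Rab22a and receptor genes. Members, lists and rule were chosen with earlier results of these data known. Loxl2, Myl6, the Nupr1 transcript and the transcripts of named genes were picked after their values were seen, and list counts are descriptions without a test. The scripts were tested on simulated data. Alternatives were other scalings, pseudocount, filters, limma settings, the knockout alone, library weights, a replicate block, 2 tissue covariates, recovered reads (limma-voom), transcripts, and each library left out. Leaving out pairs of libraries and the smooth muscle covariate were added after the data were seen. Python 3.11.15, numpy 2.4.6, pandas 2.3.3, scipy 1.17.1 and matplotlib 3.10.9 were used. Promoter sequences are from RefSeq. Some genes named by the rule are not reported here.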

Additional observations from a re-analysis of the deposited data

Results flagged for a closer look

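Within groups of 5 mice, a library was set apart where its gap to the next exceeded 0.71 of the group's range (Dixon's 95% value for 5). This held for 28 of 248 groups of values, where chance gives about 1 in 20, and values of a library are not independent of each other.

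Saline replicate 1 was far below the other saline mice for Ace (26.9 FPKM against 51.6 to 57.7), Itga8 (11.2 against 33.2 to 40.7) and Myl6 (410 against 594 to 617), and above them for Bap1 (23.7 against 19.2 to 20.4) and Isg15 (47.6 against 5.35 to 14.2). Its mean log2 level was low in the lists of elastic fibre genes (3.38 against 4.14 to 4.32), matricellular proteins (4.17 against 4.88 to 5.06), basement membrane (3.30 against 3.92 to 4.13) and adventitial fibroblasts (4.80 against 5.38 to 5.59). Saline replicate 3 was high for Ltbp2 (19.4 against 4.76 to 7.40), Mmp9 (22.4 against 5.58 to 7.54), S100a8 (317 against 10.98 to 24.4) and Tgfbr1 (17.1 against 9.43 to 11.4). Saline replicate 2 had the highest level of the red blood cell list, 8.45 against 7.68 to 7.90.

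AngII replicate 1 was low for Acta2 (1101 FPKM against 1852 to 2071), Ccn5 (14.1 against 45.3 to 55.1) and Col4a1 (107 against 180 to 193). Its log2 level was low in matricellular proteins (4.87 against 5.68 to 5.83) and in matrix proteases and inhibitors (3.71 against 4.14 to 4.30). AngII replicate 2 was high for Ace (132 against 49.1 to 71.8), Krt18 (6.73 against 1.43 to 1.86), Ltbp3 (15.1 against 0 to 1.26), Mgp (1835 against 542 to 756), Nupr1 (164 against 56.8 to 85.7), Pln (18.7 against 1.90 to 5.90), Pmepa1 (65.0 against 31.5 to 40.2) and Timp1 (38.9 against 5.04 to 14.3), and low for Trf (74.5 against 212 to 257). The part of tissue content in these values was not tested.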

How the results depend on the processing

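Genes called for AngII against saline in the knockout numbered 0 at first, 2 with library weights (Postn and Mblac2), 1 at transcript level, and 0 to 4 with 1 library left out, 4 without AngII replicate 1 and 1 without AngII replicate 4. Without both AngII replicates 2 and 4 there were 2 (Prkcsh and Snrpc, lower), and 0 under the other alternatives run. Genes at an unadjusted p under 0.05 numbered 363 with the knockout alone, 1340 with library weights, 1244 with no filter and 1566 at transcript level. Genes without overlap made up 0.426% of those compared at first, 0.294% with no filter (126 genes), 0.68% to 1.68% with 1 library left out, 1.97% without AngII replicates 2 and 4 and 3.33% without saline replicates 1 and 3, where fewer mice were compared. The interaction called 1 gene with no filter and 0 otherwise.

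With the replicate number as a block, the knockout comparison called 0 genes, 505 passed an unadjusted 0.05, and it changed no other call. The deviations of same-numbered mice correlated at -0.397, 0.395, 0.332, -0.523 and 0.138, not all above 0.1, so the numbers were not taken as pairs; 3 of 5 AngII libraries correlated best with their own number.

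List medians moved by more than the spread between mice for proteoglycans (0.32 with library weights, 0.20 without saline replicates 1 and 3), G protein signalling (0.14 with library weights), smooth muscle cells (0.086 with the smooth muscle covariate), mesothelium (2.12 on recovered reads, 1.76 with a pseudocount of 0.1) and pericytes (0.025 with the smooth muscle covariate, 0.033 without saline replicates 1 and 3). Of 80 genes, 75 kept their direction under every alternative run. The others reversed: Irf7 to 0.010 and S100a8 to 0.34 without saline replicates 1 and 3, S100a8 to 0.43 with library weights and 0.18 without saline replicate 3 (-1.002 to 0.18 with 1 library left out), Th to 0.43 and Prph to 0.65 without AngII replicates 2 and 4, and Rab11b to 0.010 on recovered reads. Apart from the missing libraries, the cause was not tested. A filter at 5 FPKM left no mesothelium gene and so gave no value. Counting error was not modelled in FPKM, but tested genes had a median of 1302 reads.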
